A study of Mus musculus with 12 samples.

Results

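The response of wild-type (WT) splenic dendritic cells (DCs) to lipopolysaccharide (LPS) was read from 6 of the 12 arrays of the series, 3 of LPS-treated and 3 of unstimulated WT cells, chosen by their genotype and stimulation labels. All 17097 genes with a probe set of a single gene symbol were compared. The series set miR-142 knockout (KO) mice beside WT littermates, and both genotypes were measured without stimulation and with LPS, 3 arrays per group. All mice were 10-week-old male C57BL/6 animals, and the cells of each array came from 1 spleen by positive selection. RNA was amplified with a kit that primes with oligo(dT) and random primers, and hybridised to Affymetrix arrays. The sources used here do not give the LPS dose, the length of the exposure or the marker used for the selection. Values are RMA signals on the log2 scale, so that a difference of 1 is a doubling, and the median gene lay at 3.14.

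LPS is the outer membrane lipid of Gram-negative bacteria. It is handed by CD14 to the receptor TLR4 with its partner MD-2 (Ly96), and the adaptors MyD88 and TRIF (Ticam1) carry the signal to NF-kB, to MAP kinases and to IRF3. In DCs the NF-kB arm is known for inflammatory cytokines, chemokines and costimulatory ligands, and the TRIF arm for interferon beta, which acts back on the cells through its receptor to induce antiviral genes.

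The labels disagree on the cells, since titles and cell type entries say DCs and the free-text descriptions say T cells. The DC genes Cd74 (mean 10.01 unstimulated and 10.06 with LPS), H2-Ab1 (9.26 and 9.35), Itgax (7.22 and 7.02), Zbtb46 (6.81 and 7.12) and Flt3 (6.16 and 6.18) were well above the median gene in both groups. Cd74 and H2-Ab1 are MHC class II presentation genes rather than markers of DCs alone. The T cell receptor component gene Cd3e was at 3.73 and 3.89. Other T cell genes were brighter, with Cd247 at 4.73 and 4.71, Cd3d at 4.46 and 4.19 and Lat at 4.32 and 4.20. The linear signals of the 5 measured DC markers summed to between 1891 and 2238 over the WT arrays, and those of 8 T cell markers to between 107 and 154. Signals of different probe sets do not compare, so these sums do not measure the share of each cell type. Other markers in these preparations were bright, among them Hba-a1 of red cells (9.41 in both groups), S100a9 of neutrophils (8.31 and 8.25), Jchain of plasma cells (7.80 and 7.84) and C1qc of macrophages (7.57 and 7.34). The B cell genes Cd79b (6.85 and 6.55) and Cd79a (6.58 and 6.55) were well above the median gene too. The 11 B and plasma cell markers summed to 709 to 844 unstimulated and 646 to 847 with LPS. The summed neutrophil signal ran from 235 to 1014 over the unstimulated arrays and from 215 to 929 over the LPS arrays. The summed NK cell signal was higher with LPS without overlap, at 713 to 740 unstimulated and 978 to 1012 with LPS. This came with Ccl5, which is also an inflammatory chemokine gene, and the other 11 NK markers summed to 265 to 350 and 246 to 352. Of 16 macrophage and monocyte markers, 8 were lower with LPS in all 3 same-numbered pairs, against 15.3% of all genes. Their median difference was −0.11, and their sums ran from 1632 to 2749 unstimulated and from 1501 to 2425 with LPS. The part of these markers in the results was not tested. No gene of the 11 marker lists was called between LPS and unstimulated WT arrays at an adjusted p under 0.05, unpaired or paired, while Ccl5 passed unpaired without KO LPS array 2 (limma adjusted p = 0.0262). A change in the number of cells of a type and a change in RNA per cell cannot be told apart in these bulk samples.

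The 6 WT arrays correlated at 0.981 to 0.991 over genes, and their medians ran from 2.67 to 2.72. After group means were removed, WT arrays that shared a number across stimulations correlated at 0.385, 0.230 and 0.422, and arrays of different numbers at −0.317 to −0.032. Same-numbered arrays were therefore also fitted as pairs. KO LPS array 2 was unlike the others, at correlations of 0.933 to 0.960 with them. It enters the WT comparison through the shared estimate of the spread and through the choice of each gene's probe set. The Gapdh 3′ control exceeded the Gapdh middle control by 3.04 log2 units on it, a sign of RNA quality that lay between 1.53 and 1.86 on the other 11 arrays. The counts of KO calls and of genotype differences are therefore given with and without this array. The bacterial spike controls were dimmer on the LPS arrays without overlap, with bioB at 8.56 ± 0.23 (SD, n = 3) unstimulated and 8.03 ± 0.12 with LPS and bioC at 9.86 ± 0.24 and 9.39 ± 0.17. The part of this in the results was not tested. The Gapdh and beta-actin controls overlapped between the groups.

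In WT cells LPS raised 20 of 17097 genes (0.117%) and lowered 0 at a Benjamini-Hochberg adjusted p under 0.05 (limma, all 12 arrays). At an unadjusted p under 0.05 the same fit gave 542 genes higher (3.17%) and 334 lower (1.95%). By function the rises included the antiviral genes Ifit1 and Ifit2, the cytokine genes Il6, Il12b and Tnf, the costimulatory ligand gene Tnfsf9, the activation marker Cd69 and the interferon beta gene Ifnb1. The other 12 were Gm9706, whose rise was larger than that of Tnf, Nfkbiz, Cited2, Rapgef2, Marcksl1, Nlrp3, Pvr, Tnfaip3, Peli1, Arhgap22, Gypc and Bcl2l1. In each of the 20 the 3 LPS arrays lay above the 3 unstimulated ones, an order seen in 6.81% of all genes, while 5.09% had all LPS arrays below. The 20 were called from these same arrays, so their order describes the calls and adds no support to them. With same-numbered arrays as pairs, limma called 73 genes higher (0.427%), the same 20 among them, and 2 lower (0.0117%). All 73 were higher in each of the 3 pairs, as were 17% of all genes (15.3% were lower in each), and 70 did not overlap between groups. These orders too follow largely from the selection by the paired fit. Of the 53 rises that pairing added, 25 were also called unpaired without KO LPS array 2.

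**Figure D1:**
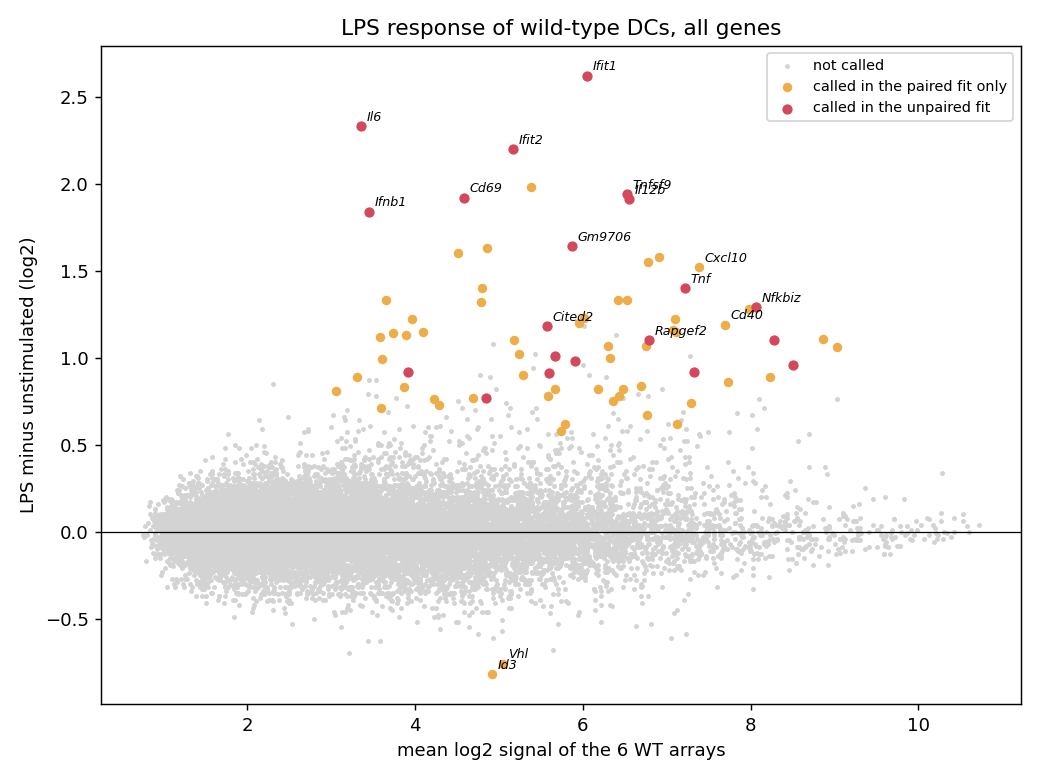
Mean log2 signal of the 6 WT arrays (x axis) against the LPS minus unstimulated difference in log2 units (y axis), 1 point per gene. Red points are the 20 genes called in the unpaired fit, yellow points those called with same-numbered arrays as pairs and not in that fit, and grey points the rest. Called genes lie above 0 except Id3 and Vhl.

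The count moved with the arrays in the fit. Leaving out WT unstimulated array 1 or 2 gave 8 genes higher, WT LPS array 1 gave 10 and WT LPS array 3 gave 4. Without KO LPS array 2 the count was 61 higher (0.357%) and 6 lower (0.0351%). Cd69, Cited2, Il12b and Tnfsf9 were called under all 16 alternatives. Array numbers run from 1 to 3 in each of the 4 groups, and whether a same-numbered pair shares a mouse is not stated.

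**Figure D2:**
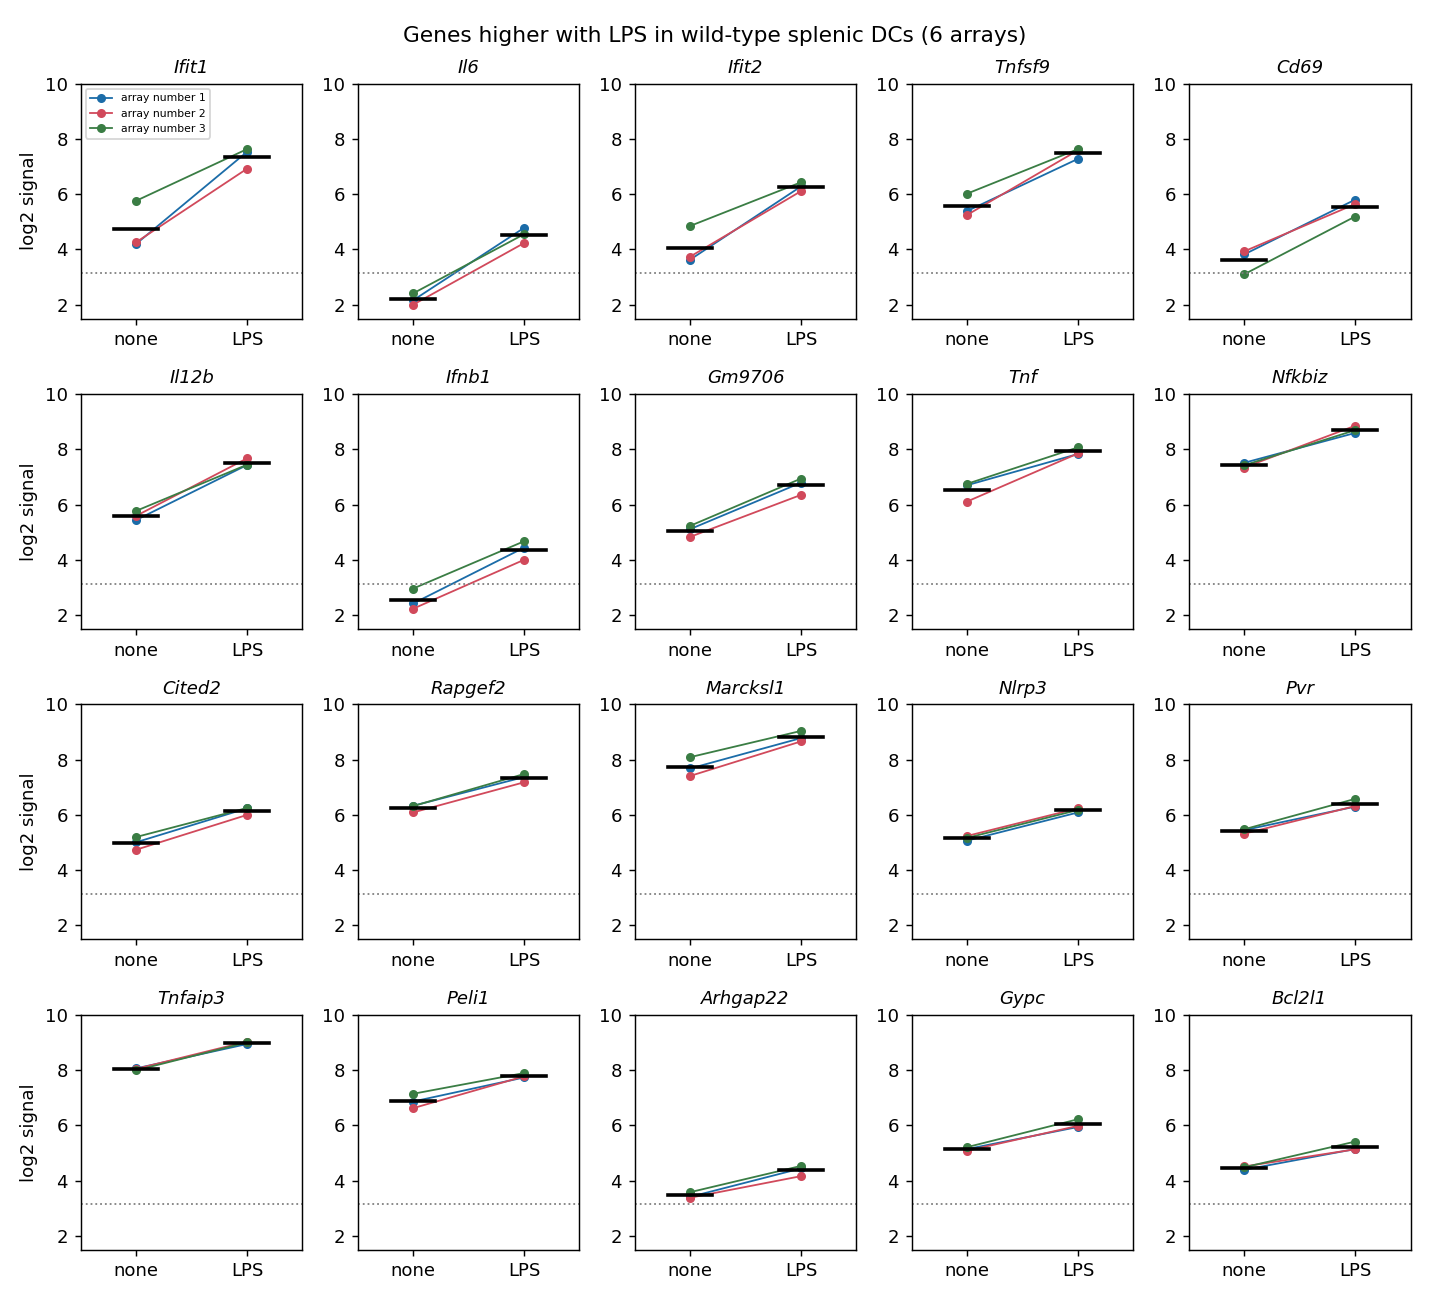
Log2 signal (y axis, same range in every panel) of the 20 called genes in unstimulated and LPS-treated WT arrays. Lines join arrays of the same number, black bars are group means of 3 arrays and the dotted line is the median gene at 3.14. In every panel the 3 LPS points lie above the 3 unstimulated points.

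The receptor side showed no called gene. None of the 6 measured genes of the LPS receptor complex was called in either fit, and none had groups that did not overlap. Their median change was 0.08, against 0.003 over all genes. Tlr4, the signalling receptor, measured 4.09, 3.59 and 3.51 in the unstimulated arrays and 3.72, 3.69 and 3.30 with LPS. Both groups overlapped, and the difference was −0.16 ± 0.18 (log2, ± SE, limma adjusted p = 1). Cd14, the LPS carrier, differed by 0.16 ± 0.37 and Ly96 by 0.12 ± 0.23. Among 10 other Toll-like receptor genes none was called, and Tlr1, Tlr2, Tlr6 and Tlr7 had all LPS arrays above all unstimulated ones, by 0.68 ± 0.23, 0.47 ± 0.24, 0.28 ± 0.11 and 0.38 ± 0.14. Unc93b1, which escorts Toll-like receptors to endosomes, had all LPS arrays below, by −0.15 ± 0.16. Over all genes, 6.81% had all LPS arrays above and 5.09% all below.

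Of 19 adaptors and kinases below the receptor, Peli1 alone was called, against 0.117% of all genes called higher unpaired and 0.427% paired. In 9 of 19 the groups did not overlap with LPS higher, against 6.81% of all genes. Peli1 encodes a ubiquitin ligase that acts on IRAK kinases. It measured 6.86, 6.62 and 7.14 unstimulated and 7.73, 7.77 and 7.89 with LPS, a rise of 0.92 ± 0.13 (limma adjusted p = 0.0117). Every LPS array exceeded the highest unstimulated array. The adaptor genes Ticam1 (0.46 ± 0.33) and Myd88 (0.32 ± 0.22) and the kinase genes Ikbke (0.39 ± 0.26) and Tbk1 (0.25 ± 0.23) were not called. The 4 measured NF-kB subunit genes were not called either. Nfkb2 differed by 0.42 ± 0.21, Relb by 0.45 ± 0.36, Rela by 0.24 ± 0.29 and Rel by 0.20 ± 0.20.

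The list named NF-kB feedback inhibitors had the highest median change of the 38 functional lists, 0.58. It also holds NF-kB-linked genes that are not plain inhibitors, such as Nfkbiz and Tnfaip2. Of its members, 2 of 17 were called in the unpaired fit and 6 in the paired fit. In 10 of 17 the groups did not overlap, all with LPS higher. Over all genes 0.117% were called higher unpaired and 0.427% paired, and 6.81% had all LPS arrays above. Nfkbiz, which encodes the nuclear IkB protein IkB-zeta, measured 7.51, 7.34 and 7.42 unstimulated and 8.59, 8.85 and 8.69 with LPS. Tnfaip3, which encodes the ubiquitin-editing enzyme A20, measured 8.06, 8.04 and 7.99 and then 8.94, 9.03 and 9.0. The spread within a group was small beside the gap between groups in both genes. Nfkbiz rose by 1.29 ± 0.15 (limma adjusted p = 0.00554) and Tnfaip3 by 0.96 ± 0.12 (adjusted p = 0.00644). Nfkbia, the gene of the classical inhibitor IkB-alpha, measured 7.27, 7.16 and 7.47 unstimulated and 8.15, 8.15 and 8.20 with LPS. Its difference of 0.86 ± 0.17 had a limma adjusted p of 0.114 unpaired over 12 arrays and 0.0263 paired, and of 0.00309 unpaired without KO LPS array 2. The paired fit also called Tnip1 (0.62), which encodes a partner of A20, the IkB-like gene Nfkbid (0.67) and N4bp1 (0.78), the last with overlap. Unpaired without KO LPS array 2, Tnip1 passed (limma adjusted p = 0.0316), while Nfkbid and N4bp1 did not (adjusted p = 0.191 and 0.456). Tnfaip2 (1.18 ± 0.25) and Zc3h12c (0.89 ± 0.25) were called in neither fit over 12 arrays. Tnfaip2 passed unpaired without KO LPS array 2 (adjusted p = 0.0324).

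Among 23 inflammatory cytokine genes, 3 were called unpaired and 5 paired, with a median of 0.24. Of all genes, 0.117% were called higher unpaired and 0.427% paired. Il6, which encodes interleukin 6, was near the floor of the array without stimulation, at 2.16, 2.00 and 2.41, and measured 4.78, 4.23 and 4.55 with LPS. Il12b, which encodes the p40 chain of interleukins 12 and 23, measured 5.44, 5.59 and 5.77 and then 7.43, 7.67 and 7.44. Tnf measured 6.70, 6.11 and 6.75 and then 7.83, 7.85 and 8.07. For these 3 genes the lowest LPS array was more than 1 log2 unit above the highest unstimulated array. Il6 rose by 2.33 ± 0.31 (limma adjusted p = 0.00861), Il12b by 1.91 ± 0.16 (adjusted p = 0.000503) and Tnf by 1.40 ± 0.17 (adjusted p = 0.00554). Ebi3, the partner chain of interleukin 27, was 1.02 ± 0.22 higher and Lif, a cytokine of the interleukin 6 family, 0.73 ± 0.13 higher. Over 12 arrays both passed in the paired fit (limma adjusted p = 0.00314 and 0.0342) and not in the unpaired one, and both passed unpaired without KO LPS array 2 (adjusted p = 0.0217 and 0.025).

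Other cytokine genes were not called. Il1b, already bright without stimulation, measured 8.54, 8.39 and 8.34 and then 9.0, 9.04 and 8.91, a difference of 0.56 ± 0.35 with no overlap. Il12a, which encodes the p35 chain that joins p40 in interleukin 12, differed by 0.18 ± 0.21 with overlap and was dim at means of 2.94 and 3.12. Its partner gene Il12b was thus called and Il12a was not, and the difference between these probe sets was not tested. Among 15 cytokine feedback genes the anti-inflammatory cytokine gene Il10 had the largest difference. It measured 3.14, 3.96 and 4.02 unstimulated and 5.41, 5.26 and 5.26 with LPS, with each LPS array above each unstimulated one. The difference of 1.60 ± 0.30 had a limma adjusted p of 0.076 unpaired and 0.0033 paired over 12 arrays, and of 0.0222 unpaired without KO LPS array 2. Of these 15 genes, 0 were called unpaired and 2 paired, beside 0.117% and 0.427% of all genes called higher. Socs3 (0.79 ± 0.28) and Socs1 (0.14 ± 0.14), which encode inhibitors of cytokine receptor signalling, were called in neither fit. Socs2 of the same family was 0.71 ± 0.25 higher with overlap (limma adjusted p = 0.786 unpaired and 0.0407 paired). It did not pass unpaired without KO LPS array 2 (limma adjusted p = 0.485).

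Over 12 arrays, chemokine genes were called in the paired fit and not in the unpaired one. Unpaired without KO LPS array 2, Ccl5 and Cxcl10 passed (limma adjusted p = 0.0262 and 0.0169), while Ccl22, Ccl3, Ccl4, Ccl7 and Cxcl1 did not. Of 15 CC chemokine genes the unpaired fit called 0 and the paired fit 4, namely Ccl22, Ccl7, Ccl4 and Ccl3, and 8 of 15 did not overlap with LPS higher, beside 0.427% of all genes called higher with pairs and 6.81% without overlap in that direction. Ccl22, which draws CCR4-bearing T cells, measured 5.88, 5.61 and 6.50 unstimulated and 7.37, 7.43 and 7.84 with LPS. Its 3 pair differences were close to each other although the level of each pair differed, and the change was 1.55 with an SE of 0.33 unpaired and 0.12 paired (limma adjusted p = 0.156 and 0.000702). Ccl3 and Ccl4, which encode inflammatory chemokines, were bright before LPS, at means of 8.50 and 8.30, and were 1.06 ± 0.28 and 1.11 ± 0.27 higher with it (paired limma adjusted p = 0.0342 and 0.0294). Ccl5 was 0.76 ± 0.17 higher without overlap and was called in neither fit (adjusted p = 0.232 and 0.0844).

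Of 12 CXC chemokine genes, 0 were called unpaired and 2 paired, beside 0.117% and 0.427% of all genes called higher. Cxcl10, a ligand of CXCR3 on T and NK cells, measured 6.64, 6.20 and 7.06 and then 8.11, 8.16 and 8.17. The LPS arrays were nearly level while the unstimulated ones were spread, and the difference was 1.52 ± 0.28 (limma adjusted p = 0.063 unpaired and 0.0204 paired). Cxcl1, a neutrophil attractant, measured 5.25, 4.30 and 4.34 and then 6.41, 5.45 and 5.31, with array 1 highest in both groups. Its difference was 1.10 ± 0.29 (limma adjusted p = 0.438 unpaired and 0.00137 paired). Cxcl9, another CXCR3 ligand known as a target of interferon gamma, differed by 0.24 ± 0.28 with overlap.

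Interferon beta was the called gene among 11 interferon and receptor genes, against 0.117% of all genes called higher unpaired. Ifnb1 measured 2.42, 2.23 and 2.96 without stimulation, under the median gene, and 4.44, 4.0 and 4.67 with LPS. The groups were more than 1 log2 unit apart, and the rise was 1.84 ± 0.23 (limma adjusted p = 0.00644). The interferon alpha genes Ifna1 (0.31 ± 0.15), Ifna4 (0.27 ± 0.18) and Ifna2 (0.12 ± 0.21) were not called. The interferon gamma receptor gene Ifngr1 was −0.53 ± 0.14 lower without overlap and was called in neither fit (limma adjusted p = 0.418 and 0.192).

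Of 32 interferon-stimulated antiviral genes, 2 were called unpaired and 7 paired, with a median of 0.27, and 13 did not overlap with LPS higher. The shares of all genes were 0.117%, 0.427% and 6.81%. Ifit1, which encodes a protein that binds viral RNA, measured 4.20, 4.26 and 5.76 unstimulated and 7.53, 6.92 and 7.63 with LPS. Ifit2 of the same family measured 3.63, 3.74 and 4.85 and then 6.28, 6.11 and 6.43. Unstimulated array 3 was the highest of its group in both genes and still lay below every LPS array. Ifit1 rose by 2.62 ± 0.36 (limma adjusted p = 0.0098) and Ifit2 by 2.20 ± 0.36 (adjusted p = 0.0444). Gm9706 rose by 1.64 ± 0.26 (adjusted p = 0.0337). RefSeq lists Gm9706 as a pseudogene, and a probe set of its kind can be shared with near-identical transcripts, so the source of its signal is uncertain.

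With pairs the antiviral list added Oasl1 (1.98), Rtp4 (1.32), Rsad2 (1.28), Ifit3 (0.90) and Usp18 (0.81). Rsad2, which encodes the antiviral enzyme viperin, was bright at 7.41, 6.85 and 7.76 before LPS and measured 8.71, 8.37 and 8.79 with it (1.28 ± 0.24, limma adjusted p = 0.076 unpaired and 0.00259 paired). The RNA sensor gene Ifih1, which encodes MDA5, measured 6.06, 5.47 and 6.83 and then 7.68, 7.55 and 7.87 (1.58 ± 0.29, limma adjusted p = 0.063 unpaired and 0.00994 paired). In both genes array 2 was lowest in each group. Unpaired without KO LPS array 2, Rsad2, Ifih1 and Oasl1 passed (limma adjusted p = 0.0386, 0.0222 and 0.0161), while Rtp4, Ifit3 and Usp18 did not. The antiviral genes Oas2 (0.14 ± 0.18), Oas3 (0.10 ± 0.19), Xaf1 (0.03 ± 0.32) and Ifitm3 (−0.06 ± 0.17) were not called. None of 12 interferon-inducible GTPase genes was called, their median was 0.037 and their changes ran from −0.35 to 0.20, all with overlap. Of 8 interferon regulatory factor genes none was called, with Irf7, which amplifies type I interferon, at −0.03 ± 0.19 and Irf4 at 0.78 ± 0.36. The STAT list had 1 of 6 called with pairs, Stat5a at 0.74, against 0.427% of all genes called higher. Stat5a did not pass unpaired, over 12 arrays or without KO LPS array 2 (limma adjusted p = 0.947 and 0.377).

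Promoter windows of 14 of the 20 called genes were found in RefSeq (GRCm38.p6), as 20 windows from 250 bases before to 50 bases after an annotated start. Both strands were searched for the NF-kB consensus of 10 bases, for the core of the interferon-stimulated response element and for the AP-1 site TGANTCA, with overlaps allowed. The NF-kB consensus stood in 6 of 20 windows (30%), against 8.46% of all 32851 windows and 10% of the 16953 windows of measured genes. The interferon element stood in 1 of 20 (5%) against 3.44% and 2.99%, and the AP-1 site in 2 of 20 (10%) against 7.81% and 6.46%. A match is a string of letters and not a measured binding site. The 250 bases before the start are shown for Il6, Ifnb1 and Tnfaip3, which carry the NF-kB consensus, and for Ifit1, which carries the interferon element, since they represent the cytokine, interferon, feedback and antiviral groups. They are written 5′ to 3′ along the gene's own strand, with matches in capitals.
Il6 (chr5:30012864-30013113, plus strand): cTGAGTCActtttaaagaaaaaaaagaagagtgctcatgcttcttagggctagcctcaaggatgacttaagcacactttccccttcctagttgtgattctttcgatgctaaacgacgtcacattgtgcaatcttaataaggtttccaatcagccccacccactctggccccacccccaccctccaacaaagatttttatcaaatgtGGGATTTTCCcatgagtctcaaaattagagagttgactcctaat
Ifnb1 (chr4:88522795-88523044, minus strand): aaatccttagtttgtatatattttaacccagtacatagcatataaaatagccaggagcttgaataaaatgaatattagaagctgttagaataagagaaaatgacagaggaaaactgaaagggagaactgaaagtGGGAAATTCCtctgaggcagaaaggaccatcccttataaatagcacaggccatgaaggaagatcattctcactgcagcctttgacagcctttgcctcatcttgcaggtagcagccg
Tnfaip3 (chr10:19015411-19015660, minus strand): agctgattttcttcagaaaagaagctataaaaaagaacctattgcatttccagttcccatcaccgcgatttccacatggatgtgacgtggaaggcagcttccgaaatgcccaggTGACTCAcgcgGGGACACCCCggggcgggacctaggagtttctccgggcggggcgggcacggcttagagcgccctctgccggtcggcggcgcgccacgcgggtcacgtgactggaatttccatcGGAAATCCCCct
Ifit1 (chr19:34640639-34640888, plus strand): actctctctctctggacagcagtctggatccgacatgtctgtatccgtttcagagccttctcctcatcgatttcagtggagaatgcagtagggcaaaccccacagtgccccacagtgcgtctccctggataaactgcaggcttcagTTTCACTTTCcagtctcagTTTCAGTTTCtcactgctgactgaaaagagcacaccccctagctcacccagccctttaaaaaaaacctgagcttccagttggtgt

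In the Il6 window the NF-kB match began 44 bases before the start and the AP-1 match 249 bases before it. The Ifnb1 match began 116 bases before the start, and those of Tnfaip3 125 and 12 bases before it, beside an AP-1 match at 136. The window of another annotated Tnfaip3 start held no match and is not shown. In Ifit1 both interferon element matches read on the opposite strand, as TTTCACTTTC and TTTCAGTTTC, 104 and 85 bases before the start. No match was found in the windows of Il12b and Tnf, which says only that these letters are not in those windows.

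Costimulatory and checkpoint ligands had a median change of 0.42, with 2 of 20 called unpaired, 5 paired and 10 without overlap, all with LPS higher. Of all genes, 0.117%, 0.427% and 6.81% did so. Tnfsf9, which encodes the ligand of 4-1BB on T cells, measured 5.39, 5.25 and 6.02 unstimulated and 7.28, 7.59 and 7.63 with LPS. Pvr, a ligand of DNAM-1 and TIGIT, measured 5.45, 5.32 and 5.48 and then 6.30, 6.32 and 6.58. Both genes had all LPS arrays well above the unstimulated ones. Tnfsf9 rose by 1.94 ± 0.21 (limma adjusted p = 0.00303) and Pvr by 0.98 ± 0.14 (adjusted p = 0.0136).

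Tnfsf4, Cd40 and Cd70 passed with pairs. Tnfsf4, which encodes OX40 ligand, measured 4.13, 3.54 and 4.45 and then 5.70, 5.29 and 6.02 (1.63 ± 0.30, limma adjusted p = 0.0643 unpaired and 0.00137 paired). Cd40, the receptor for T cell help, measured 6.85, 7.03 and 7.42 and then 8.24, 8.18 and 8.44 (1.19 ± 0.21, adjusted p = 0.0606 and 0.00252). Cd70, the ligand of CD27, measured 3.42, 2.43 and 3.20 and then 4.29, 3.75 and 4.39 (1.12 ± 0.23, adjusted p = 0.122 and 0.00201). None of these 3 genes overlapped between groups. Unpaired without KO LPS array 2, Tnfsf4 and Cd40 passed (limma adjusted p = 0.00683 and 0.0222) and Cd70 did not (adjusted p = 0.0634). Cd83, Cd86, Cd80 and Cd274, which encodes PD-L1, also had every LPS array above every unstimulated one, but were called in neither fit. Cd83 was bright already, at 9.35, 9.36 and 9.39 and then 9.45, 9.62 and 9.62, a difference of 0.19 ± 0.28. The differences were 0.28 ± 0.19 for Cd86, 0.65 ± 0.33 for Cd80 and 0.55 ± 0.20 for Cd274. Cd69, an early activation marker that is outside the fixed lists, measured 3.82, 3.93 and 3.10 and then 5.80, 5.64 and 5.19. It rose by 1.92 ± 0.23 (limma adjusted p = 0.00554), and array 3 was lowest in both groups.

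**Figure D3:**
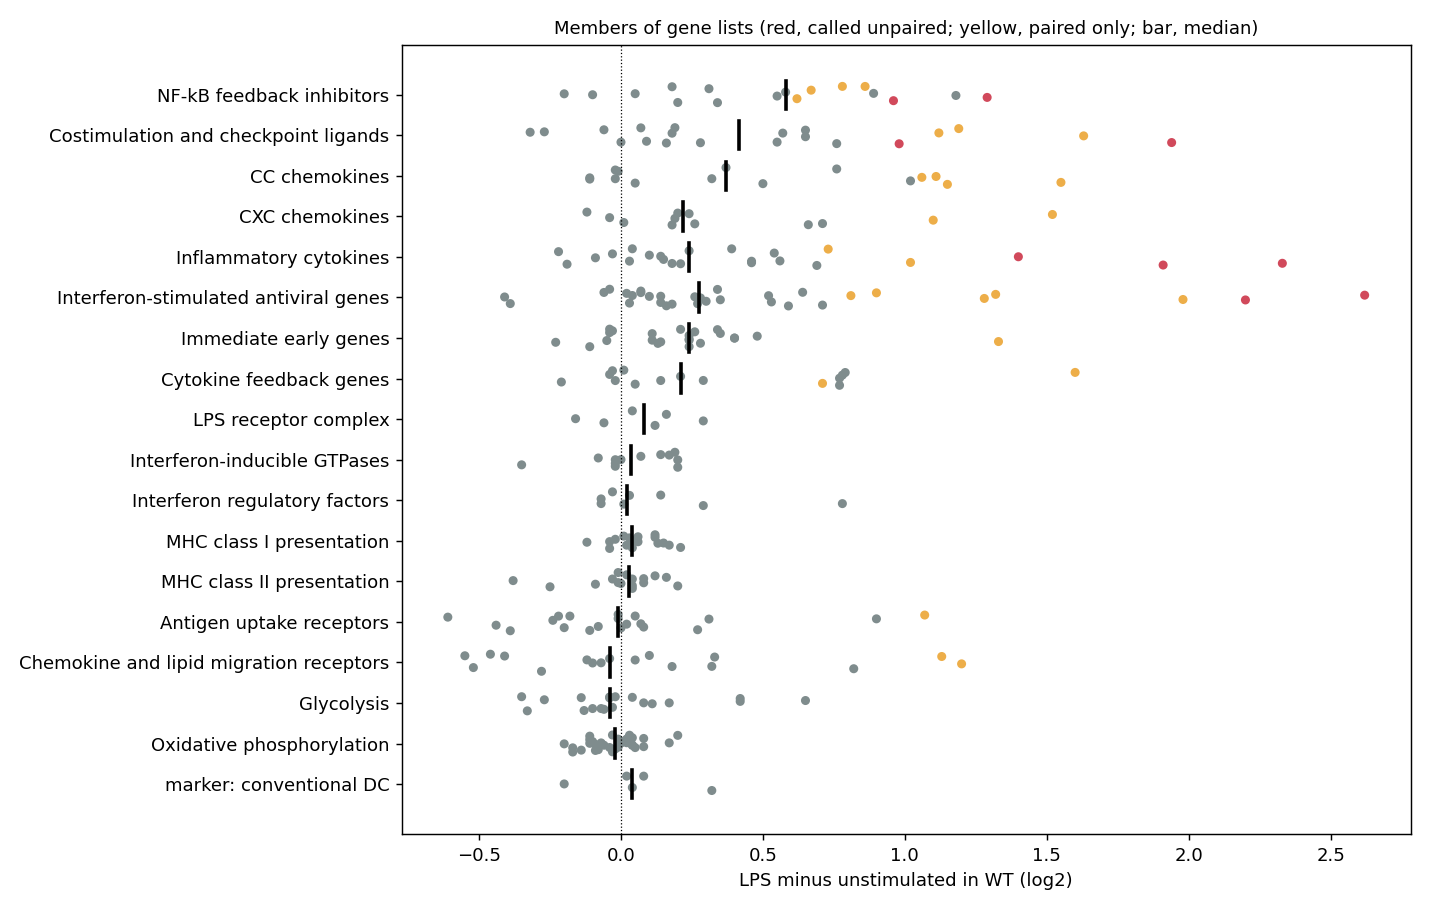
LPS minus unstimulated difference in WT in log2 units (x axis) for each measured member of 18 gene lists (rows), 1 point per gene, with vertical offsets only to separate points. Red marks genes called unpaired, yellow those called with pairs and not unpaired, and the black bar the list's median. Medians run from 0.58 for NF-kB feedback inhibitors to −0.037 for glycolysis.

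Of 15 maturation and migration genes, 1 was called unpaired and 3 paired, with a median of 0.37. This list shares members with lists above, such as Ccl5, and its largest change, 1.55, equals that of Ccl22. Its calls are therefore not all separate from those already counted. The shares of all genes called higher were 0.117% and 0.427%. Marcksl1, which encodes a membrane protein that binds actin and calmodulin, measured 7.68, 7.41 and 8.09 and then 8.78, 8.66 and 9.04, a rise of 1.10 ± 0.17 (limma adjusted p = 0.0312). Fscn1, the actin bundler of mature DCs, differed by 0.68 ± 0.31 with overlap. Among 17 migration receptors, Ccrl2 (1.20) and the B-cell follicle receptor gene Cxcr5 (1.13) passed with pairs, against 0.427% of all genes. Unpaired without KO LPS array 2, Cxcr5 passed and Ccrl2 did not (limma adjusted p = 0.0386 and 0.31). All LPS arrays were above in 4 of 17, among them Ccrl2, Cxcr5 and the uncalled Gpr183 (0.82 ± 0.34), against 6.81% of all genes. Ccr1, Ccr2 and S1pr4 had all LPS arrays below, by −0.41 ± 0.34, −0.55 ± 0.25 and −0.46 ± 0.17, against 5.09% of all genes.

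Antigen presentation genes showed no called change. None of 16 MHC class II genes was called or free of overlap, and their median was 0.031. H2-Aa measured 9.41, 9.44 and 9.49 and then 9.48, 9.36 and 9.61, and Ciita, the class II transactivator, differed by 0.12 ± 0.18. None of 17 MHC class I genes was called, and their median was 0.044. Of 20 uptake receptors 1 was called with pairs, the mycobacterial glycolipid receptor gene Clec4e, at 1.07, against 0.427% of all genes. Clec4e did not pass unpaired, over 12 arrays or without KO LPS array 2 (limma adjusted p = 0.624 and 0.299). Clec7a, which encodes the beta-glucan receptor dectin-1, measured 7.38, 7.37 and 7.33 and then 6.83, 6.72 and 6.70, a difference of −0.61 ± 0.19 without overlap that was called in neither fit (limma adjusted p = 0.629 and 0.233).

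Survival, inflammasome and lipid mediator genes each gave few calls. Of all genes, 0.117% were called higher unpaired and 0.427% with pairs. Bcl2l1, which encodes the survival protein Bcl-xL, measured 4.39, 4.51 and 4.48 and then 5.14, 5.13 and 5.41 and was the called gene of 20 in its list (0.77 ± 0.11, limma adjusted p = 0.0137). Nlrp3, the inflammasome sensor, measured 5.07, 5.24 and 5.17 and then 6.09, 6.24 and 6.18 (1.01 ± 0.12, limma adjusted p = 0.00554). The groups of both genes lay apart. Casp4, the cytosolic LPS-sensing caspase gene also known as caspase-11 in mice, was 0.58 higher and passed with pairs (limma adjusted p = 0.0452). It did not pass unpaired, over 12 arrays or without KO LPS array 2 (limma adjusted p = 0.512 and 0.284). Casp1 differed by −0.06 ± 0.18. Ptgs2, which encodes cyclooxygenase 2, was 1.22 ± 0.22 higher (limma adjusted p = 0.063 unpaired and 0.0342 paired, and 0.025 unpaired without KO LPS array 2). Acod1, which makes itaconate, measured 6.31, 6.02 and 4.94 and then 7.29, 7.34 and 6.63, with array 3 lowest in both groups (1.33, adjusted p = 0.809 unpaired and 0.00337 paired).

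Of 23 immediate early genes, 1 passed with pairs, against 0.427% of all genes called higher. Myc measured 6.08, 5.95 and 5.55 and then 7.31, 7.18 and 7.08 (1.33 ± 0.23, limma adjusted p = 0.058 unpaired and 0.00137 paired). It also passed unpaired without KO LPS array 2 (limma adjusted p = 0.00233). The list median was 0.24, and 11 of 23 did not overlap with LPS higher, against 6.81% of all genes. Klf6 was 0.26 ± 0.09 and Maff 0.48 ± 0.15 higher without overlap and were called in neither fit. None of the 12 MAP kinase phosphatase genes was called, and Dusp1 and Dusp2 differed by 0.25 ± 0.12 and 0.59 ± 0.17.

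Other called genes stood outside these lists. Cited2, which encodes a co-regulator that binds CBP/p300, measured 5.01, 4.74 and 5.20 and then 6.24, 6.00 and 6.25 and rose by 1.18 ± 0.12 (limma adjusted p = 0.00303). Rapgef2, an exchange factor for Rap GTPases, measured 6.33, 6.09 and 6.32 and then 7.37, 7.18 and 7.48 and rose by 1.10 ± 0.13 (adjusted p = 0.00554). Arhgap22, a Rac GTPase-activating protein gene, rose by 0.92 ± 0.14 (adjusted p = 0.0275) and Gypc, which encodes glycophorin C of the membrane skeleton, by 0.91 ± 0.12 (adjusted p = 0.00644). Gypc is also expressed in red cells, whose marker Hba-a1 had a mean of 9.41 in both groups. Of the called genes, 9 had more than 1 probe set, and all 27 of those probe sets were higher with LPS. The 27 include the probe set on which each gene was called, whose direction was given by the call. In a limma fit over probe sets some of the others passed, such as 1 of Il12b (adjusted p = 0.000697). Others did not, such as 1 of Pvr (adjusted p = 0.873) and 1 of Bcl2l1 (adjusted p = 0.457). Bcl2l1 was not called when the probe sets of a gene were averaged.

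Both genes that fell in the paired fit were named after their values were seen. Id3, which encodes an inhibitor of E-protein transcription factors, measured 5.20, 5.42 and 5.38 unstimulated and 4.40, 4.73 and 4.40 with LPS. Vhl, the ubiquitin ligase subunit that targets HIF-1 alpha, measured 5.22, 5.67 and 5.37 and then 4.52, 4.82 and 4.65. Neither overlapped. Id3 differed by −0.82 ± 0.15 (limma adjusted p = 0.0643 unpaired and 0.0366 paired) and Vhl by −0.76 ± 0.15 (adjusted p = 0.122 and 0.0143). Without KO LPS array 2 the unpaired fit called 6 genes lower, Id3, Vhl, Csf2rb, Mrps34, Polr2e and Tent5a. Csf2rb, the shared receptor chain for GM-CSF, interleukin 3 and interleukin 5, was −0.59 ± 0.16 lower (limma adjusted p = 0.494 with that array and 0.0294 without).

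Metabolic lists had medians close to that of all genes and no called member. The medians were −0.037 for 19 glycolysis genes, −0.011 for 20 genes of the TCA cycle, −0.017 for 33 of oxidative phosphorylation, −0.021 for 19 of fatty acid oxidation and 0.019 for 18 hypoxia-responsive genes. Hk2, which encodes hexokinase 2, measured 5.52, 5.34 and 5.32 and then 5.82, 5.92 and 5.71. The groups did not overlap, and the difference of 0.42 ± 0.12 was called in neither fit (limma adjusted p = 0.533 and 0.39). Nos2, the inducible nitric oxide synthase gene, was under the median gene in every WT array and differed by −0.12 ± 0.12.

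The KO arrays gave a response of the same direction for all 20 genes. Of the 20 WT rises 16 were also called higher in KO, which is 80% of the WT and 26.2% of the 61 KO rises (0.357% of all genes were called higher in KO). With pairs the shared rises were 61, or 83.6% of 73 in WT and 49.6% of 123 in KO (0.719%). Without KO LPS array 2 they were 44, or 72.1% of 61 and 48.4% of 91 (0.532%). Both genotypes have their own controls but share the estimate of the spread.

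Arhgap22, Bcl2l1, Gm9706 and Gypc were called in WT and not in KO. Bcl2l1 differed by 0.29 ± 0.11 with LPS in KO (limma adjusted p = 0.415), and the difference between genotypes was −0.48 ± 0.16 (adjusted p = 0.969). For Gm9706 the KO difference was 1.07 (adjusted p = 0.152), and 1.39 (adjusted p = 0.008) without KO LPS array 2. Ifnb1 was 1.27 higher in KO (adjusted p = 0.0402), and 1.17 (adjusted p = 0.0757) without that array. The interaction of LPS with genotype had 0 called genes (0%) in limma, 639 having an unadjusted p under 0.05 (3.74%). The paired fit and the fit without KO LPS array 2 also called 0. The gene with the smallest p among those named for the difference, Sntb1, was dim, and differed by 0.40 ± 0.12 in WT and −0.41 ± 0.12 in KO (difference −0.81 ± 0.17, limma adjusted p = 0.969). These tests do not show that the responses were alike.

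**Figure D4:**
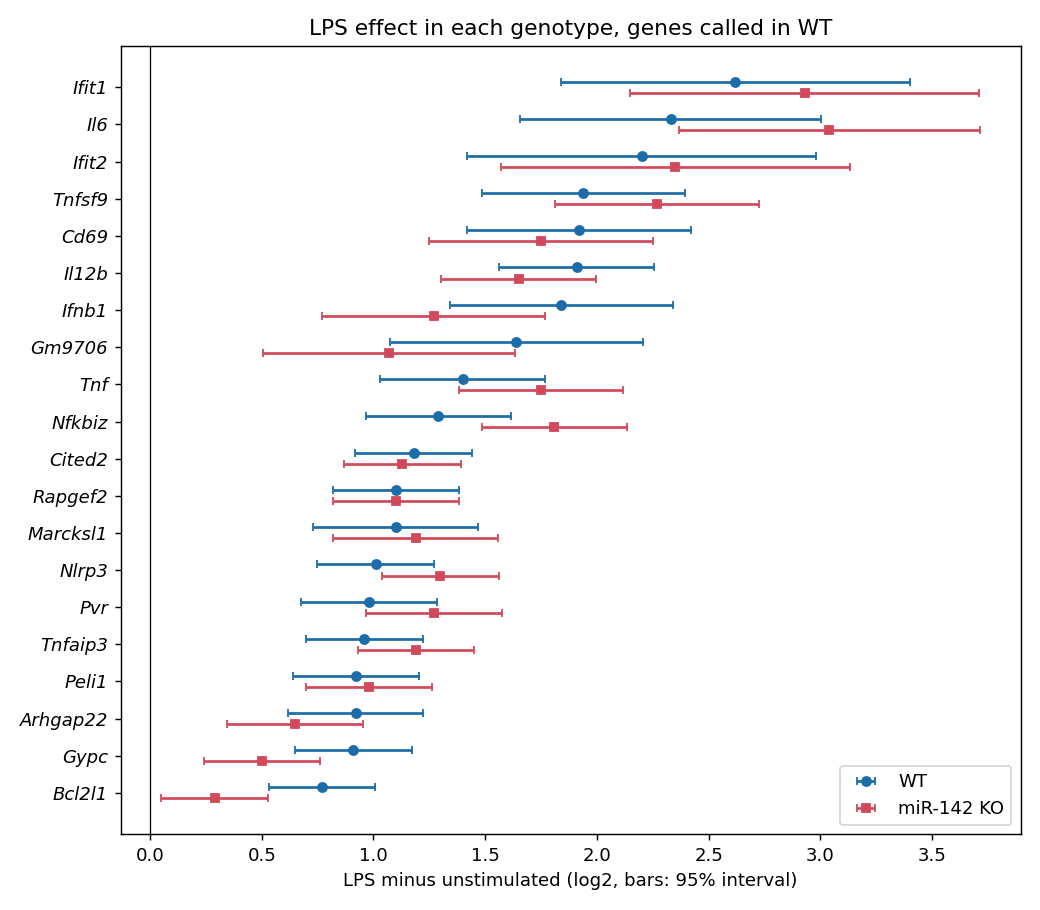
LPS minus unstimulated difference in log2 units (x axis) for the 20 genes called in WT (rows), in WT (blue circles) and miR-142 KO (red squares), with 95% intervals from the limma fit. Every point lies above 0, from 0.29 for Bcl2l1 to 3.04 for Il6 in KO.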

How the data were processed

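The deposited table held log2 signals of 45141 probe sets, normalised by the authors with RMA per the submitters' processing notes; no source used here gives the RMA version. Probe sets with 1 gene symbol (28898) were kept, and the one with the highest mean over the 12 arrays stood for its gene, giving 17097 genes. The 104 control probe sets, 551 with several symbols and 15588 without one were left out. All 4 group means were fitted with limma 3.58.1 in R 4.3.3 (lmFit, eBayes), with statmod 1.5.0 for the random block. A gene was called at p under 0.05 after Benjamini-Hochberg adjustment over all genes. Errors after ± are SEs unless named SD. The number of arrays limits the precision. An exact permutation test of 3 against 3 arrays cannot go below p = 0.1, so none was used. The code was tested on simulated data.

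The paired fit used the array number within genotype as a fixed block. The labels do not state pairs; pairing was accepted because every same-number correlation exceeded 0.1. Labels call the arrays biological replicates of individual spleens. The members, the 49 gene lists and the rules were chosen with earlier results of these data known.

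Genes were named by rule: the 15 largest called rises and falls without overlap, bright enough and not predicted models, up to 6 called and 3 bright uncalled members per list, a fixed set of LPS and DC genes, and 8 with the smallest adjusted p in the genotype difference. Other genes named were chosen after their values were seen. These were Gm9706, Arhgap22, Gypc, uncalled members set beside a called gene, and some genes called only with pairs or with an array left out. Some genes called only with pairs, such as Il10, Cxcl10, Ccl22 and Cd40, were in the fixed set. Others called only with pairs are not named here. Alternatives are in the closing section.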

Additional observations from a re-analysis of the deposited data

Results flagged for a closer look

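Probe sets left out of the gene comparison also carried signal. Of 16139 probe sets without a single gene symbol, limma called 9 higher with LPS in WT and 0 lower at an adjusted p under 0.05, with 879 at an unadjusted p under 0.05. The 9 changes ran from 0.80 to 1.71 on the log2 scale. These probe sets are unnamed here.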

How the results depend on the processing

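Against 20 genes called in WT (20 higher, 0 lower), the 6 WT arrays alone gave 56 (54 higher, 2 lower) and the fit without KO LPS array 2 gave 67 (61 higher, 6 lower). The replicate block gave 75 (73 and 2) as a fixed term over 12 arrays, 164 (152 and 12) over the 6 WT arrays and 48 (45 and 3) as a random term. Leaving out dim genes gave 34, all higher, and the mean of a gene's probe sets gave 31 (30 and 1). Leaving out 1 WT array gave 4 to 29 genes, all higher. The cause of these moves was not tested, except that leaving out dim genes tested 8750. Quantile normalisation gave 17, centring on the median 20 and an intensity trend 22. All 20 genes were called in the 3 block fits. The fixed block over 12 arrays added 53 higher and 2 lower genes and changed no other call. No value of a named gene changed sign while called. The difference between genotypes had 0 calls under every alternative run. Dim genes such as Il6 and Ifnb1 without stimulation lie near background, so their fold sizes are uncertain. Probe sets do not compare between genes.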
